A study of Mus musculus with 48 samples.

Results

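The 37 genes of the mouse mitochondrial DNA were followed through cortical total homogenate (TH) and synaptosomes (SYN), before and after the enrichment of ribosomes. They are all the genes of the deposited count table whose GENCODE symbol starts with mt-, 37 of 48526 genes, and comprise 13 mRNAs, 2 rRNAs and 22 tRNAs. The tissue was the cortex of 12 male wild-type mice of the strain C57BL/6JRj, untreated, with 4 mice at each of 3 ages. The ages were 3 weeks (3w), 5 months (5m; 6 months in the sample labels) and 18 months (18m; 18 or 19 months in the protocol). Each mouse gave 4 libraries, 48 in all, named input_TH, SC_TH, input_SYN and SC_SYN. Input is the RNA of the fraction, SC is the RNA that pelleted through a sucrose cushion together with ribosomes, and synaptosomes are pinched-off nerve endings isolated on a sucrose gradient. A pellet under a cushion can hold other dense particles besides ribosomes, and a synaptosome fraction holds free mitochondria and membranes in addition to nerve endings.

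Mitochondria carry their own circular DNA, which is transcribed from both strands into long precursors. The tRNAs are cut out of these precursors, and this releases the mRNAs and rRNAs between them. The heavy-strand precursor gives nearly all mRNAs and both rRNAs, and the light-strand precursor gives mt-Nd6 and several tRNAs. The mRNAs code for core subunits of complexes I, III, IV and V of the respiratory chain and are translated inside the organelle by mitochondrial ribosomes, which are built on mt-Rnr1 and mt-Rnr2 and differ from cytosolic ribosomes.

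The table holds the reads that the authors counted on each gene, without normalization and, by the stated setting, without regard to strand. Totals per library ranged from 1780267 to 18590040 reads. The median was 10815833.5 reads in input_TH, 8643431 in SC_TH, 3756951 in input_SYN and 7298371 in SC_SYN. Levels are given as CPM, a gene's reads scaled to the library's total. The fractions were checked with marker lists, none of which was at 0. The 8 nuclear RNAs, among them Malat1 and Meg3, summed to a median of 23951 CPM in input_TH and 2214 in input_SYN, whereas the 10 neuronal and synaptic mRNAs, among them Camk2a and Shank1, summed to 11364 and 20389. Differences between groups are log2 fold changes from edgeR on TMM-scaled counts, and a gene passed where its p, adjusted by Benjamini-Hochberg over all genes tested, was under 0.05. In such bulk libraries, fewer mitochondria and less RNA per mitochondrion cannot be told apart.

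Reads were found on 27 of the 37 genes. All 13 mRNAs and both rRNAs had reads in all 48 libraries. The tRNA genes are 59 to 75 bases long, shorter than the sequenced reads, and 10 of the 22 had no read in any library. These 10 are all among the 14 tRNA genes of the heavy-strand transcript, of which 4 had reads. All 8 of the light-strand transcript had at least 1 read. The part of neighbouring genes and of the way of counting in this split was not tested. The light-strand tRNAs with the most reads are mt-Tq (glutamine; chrM:3772-3842), mt-Te (glutamic acid; chrM:14071-14139) and mt-Tp (proline; chrM:15356-15422). They are shown with the heavy-strand mt-Ti (isoleucine; chrM:3706-3774) and mt-Tw (tryptophan; chrM:4950-5016), in whole and without capitals, because the comparisons name them. Positions and sequences are those of GENCODE M21 for GRCm38, minus strand for the first set and plus strand for the second.
mt-Tq: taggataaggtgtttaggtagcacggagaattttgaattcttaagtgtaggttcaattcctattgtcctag
mt-Te: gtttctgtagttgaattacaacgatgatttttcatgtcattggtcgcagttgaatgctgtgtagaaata
mt-Tp: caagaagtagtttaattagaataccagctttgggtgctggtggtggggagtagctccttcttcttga
mt-Ti: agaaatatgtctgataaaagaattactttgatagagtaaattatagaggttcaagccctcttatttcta
mt-Tw: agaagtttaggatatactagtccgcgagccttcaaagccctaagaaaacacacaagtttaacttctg

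Several members share bases with a neighbour, and a read there cannot be given to 1 gene. The end of mt-Atp8 and the start of mt-Atp6, both subunits of the ATP synthase (complex V) read from 1 mRNA, share 43 bases. These are capitals in the stretch chrM:7917-7979 on the plus strand, which is shown because the ratio of both genes differed most between fractions. The ends of mt-Nd5 and mt-Nd6 pair over 14 bases on opposite strands (chrM:13552-13565), in capitals below, and reads of one strand cannot be told from reads of the other. The same holds for the whole of mt-Nd6 and the light-strand tRNA genes: counted without strand, their values can include heavy-strand RNA that runs across them. mt-Nd4l and mt-Nd4 share 7 bases.
mt-Atp8/mt-Atp6: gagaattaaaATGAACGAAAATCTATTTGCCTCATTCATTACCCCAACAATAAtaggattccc
mt-Nd5 end: ttatactcaaTTAATCTCGAGTAA
mt-Nd6 end: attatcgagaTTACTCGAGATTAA

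Many reads were also counted on nuclear copies of mitochondrial DNA. Among annotated transcripts, 11 nuclear genes matched a member with at least 95% identity over at least 80% of their length, and 5 of them were identical to it. Over all libraries they held 1916117 reads, or 27.3% of the 7020868 reads on the members. On chromosome 1, Gm28661 held 98.6% as many reads as mt-Co2 and Gm28437 held 99.6% as many as mt-Co3. Gm10222 held 99.9% as many as mt-Nd4l, Gm28438 held 96.2% as many as mt-Nd3, and Gm28439 held 53.1% as many as mt-Nd4. Gm10925, identical to mt-Atp6, held more reads than the gene itself, 111.9% as many, and Gm29216 held 14.8% as many as mt-Co1. Of the read-length windows of mt-Atp6, 99.5% also occurred in a nuclear transcript, and of those of mt-Co1 30.7% did. The levels of these 7 members are therefore uncertain. Whether a read that fits both a gene and its copy was counted at 1 place or at both is not stated. If at both, adding the reads of the copies to a gene counts the same reads again. In contrast, no window of the read length in mt-Nd1, mt-Nd5, mt-Nd6, mt-Cytb, mt-Atp8, mt-Rnr1 or mt-Rnr2 occurred in a nuclear transcript.

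**Figure D1:**
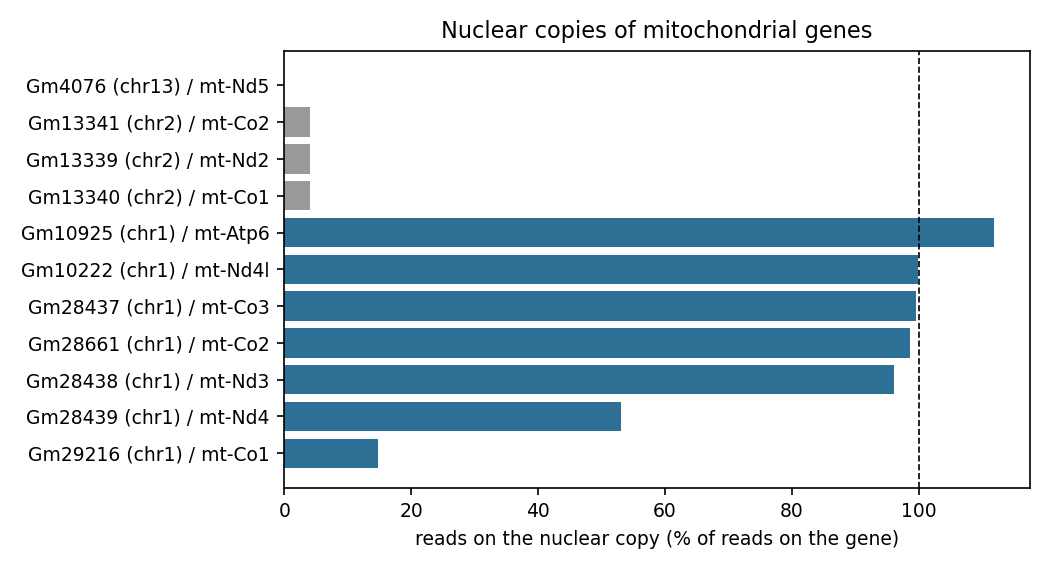
Reads on each annotated nuclear copy, as a percentage of the reads on the mitochondrial gene it matches, summed over the 48 libraries (blue, chromosome 1; grey, chromosomes 2 and 13; dashed line, as many reads as the gene itself). The bars of 5 copies on chromosome 1 reach 96.2% to 111.9%, and those of the 3 copies on chromosome 2 are near 4.1%.

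The members took 2.43% ± 0.640 of the counted reads in input_TH (mean ± SD, n = 12 mice) and 2.96% ± 0.437 in input_SYN. The ribosome pellets held less, with 0.629% ± 0.189 in SC_TH and 1.33% ± 0.471 in SC_SYN. In each of the 12 mice, the share was lower in SC_TH than in input_TH and lower in SC_SYN than in input_SYN. It was higher in SC_SYN than in SC_TH in 11 of 12 mice. The 12 heavy-strand mRNAs set most of this, with 1.75% in input_TH, 0.561% in SC_TH, 2.55% in input_SYN and 1.12% in SC_SYN. The rRNAs, as left after rRNA depletion, took 0.652% in input_TH, 0.0488% in SC_TH, 0.316% in input_SYN and 0.133% in SC_SYN. The light-strand mRNA mt-Nd6 had a different order, with 0.0233% in input_TH, 0.0190% in SC_TH, 0.0938% in input_SYN and 0.0707% in SC_SYN.

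**Figure D2:**
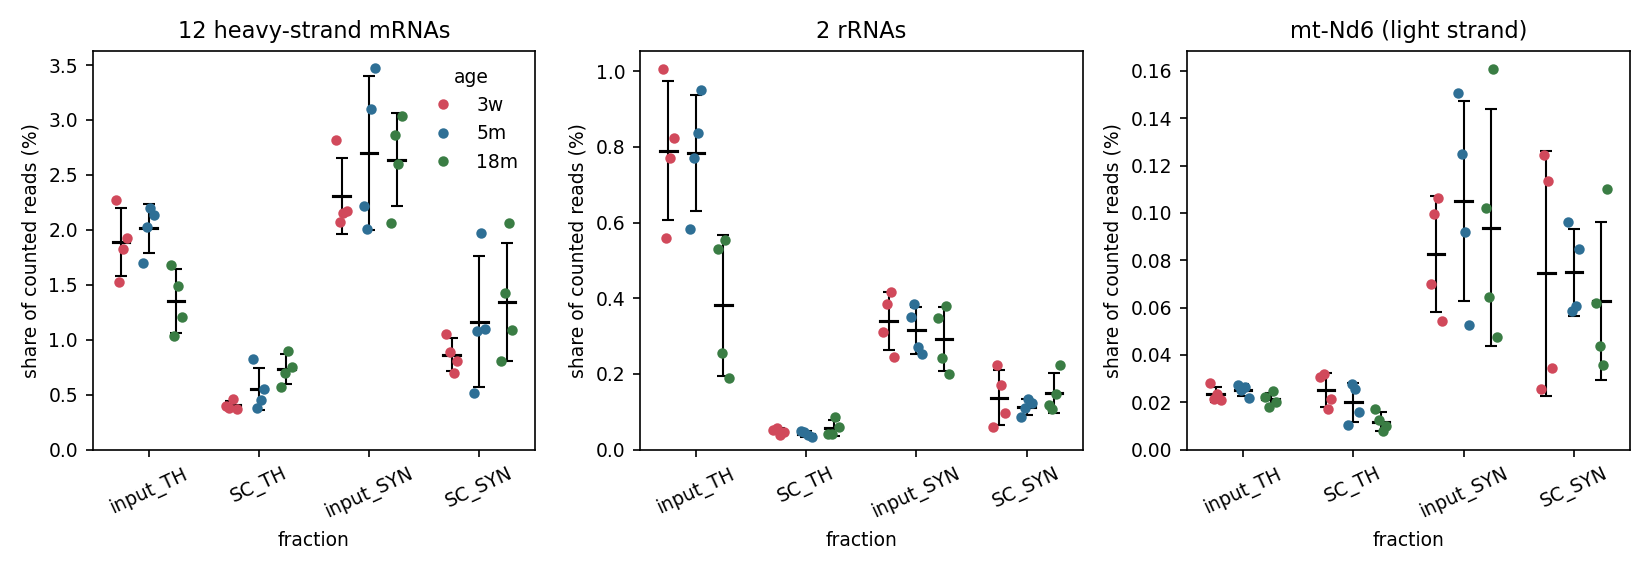
Share of counted reads (%) on the 12 heavy-strand mRNAs, the 2 rRNAs and mt-Nd6 in each library, by fraction and age (points, mice; bar, mean ± SD, n = 4). The means of the heavy-strand mRNAs and rRNAs are higher in input than in SC. mt-Nd6 is higher in SYN than in TH in 12 of 12 mice for input and 11 of 12 for SC, and single SC_SYN values overlap those of TH.

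Per kilobase of gene length, mt-Co1, the catalytic core of cytochrome c oxidase (complex IV), was the highest mRNA in all 4 fractions as counted, with 3316 CPM per kb in input_TH, 1820 in SC_TH, 6843 in input_SYN and 3934 in SC_SYN. It made up 29.1% ± 1.24 of the reads on the 13 mRNAs in input_TH (SD, n = 12) and 49.2% ± 2.77 in SC_TH. The values were 40.4% ± 2.36 in input_SYN and 51.5% ± 2.63 in SC_SYN, so that its share was higher in both pellets than in their inputs. With the reads of nuclear copies added to each gene, a setting chosen after the values were seen, mt-Co1 stayed highest in 3 fractions and ranked 3 of the mRNAs in input_TH, where it had 3963 CPM per kb, mt-Co2 4890 and mt-Atp6 4578. Its share of the mRNA reads was then 25.4%, 45.9%, 36.1% and 48.0% in input_TH, SC_TH, input_SYN and SC_SYN. As counted, mt-Rnr2 ranked first of the 15 mRNAs and rRNAs in input_TH with 3983 CPM per kb, and held rank 5 in both SYN fractions. Here and below, values of mt-Rnr1 and mt-Rnr2 are those left after rRNA depletion, whose part was not tested. mt-Nd6, a subunit of complex I, ranked 12 in input_TH with 448 CPM per kb and 2 in SC_SYN with 1363. mt-Atp8 ranked 14 in input_TH and 15 in the other fractions.

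SC was compared with input to ask which transcripts pellet under the cushion with ribosomes. Differences of SC against input, and of SYN against TH, are means over the 3 ages. Before the cushion, TH lysates were passed through a needle and centrifuged, a step that the paper gives for TH only. In TH, 18 of 20 members tested were lower in SC_TH than in input_TH and none was higher, where 75.8% of all genes tested passed in either direction and 40.2% were lower. The count filter kept mt-Tm only through input_TH and mt-Tp only through both fractions together, and of the other 18 members 17 were lower. mt-Co1 ranged from 3243 to 6551 CPM in input_TH and from 1991 to 4096 in SC_TH, with a log2 difference of -0.81 ± 0.08 (SE; adjusted p = 3.24e-10). That was the smallest fall among the heavy-strand mRNAs. The ranges overlapped, yet 11 of 12 mice had the lower value in SC_TH. mt-Cytb, the core subunit of complex III, had -1.78 ± 0.13. The complex I subunits mt-Nd1, mt-Nd2, mt-Nd4, mt-Nd4l and mt-Nd5 fell, with differences of -2.56 to -1.95, as did mt-Co2, mt-Co3 and mt-Atp6 with -2.32 to -1.91.

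mt-Atp8 and mt-Nd3 fell most. They are among the 3 shortest mRNA genes (204 bases for mt-Atp8 and 348 for mt-Nd3). The third, mt-Nd4l with 297 bases, had -2.36 ± 0.16. The part of gene length was not tested. mt-Atp8 had between 14.7 and 73.6 CPM in input_TH and between 0.222 and 4.45 CPM in SC_TH, where single libraries held 1 to 60 reads. It fell by 5.07 ± 0.24 (adjusted p = 1.69e-16) and was lower in 12 of 12 mice. mt-Nd3, a subunit of complex I, fell by 4.13 ± 0.17 (adjusted p = 3.93e-18). Of the rRNAs, mt-Rnr2 (large subunit) had -3.66 ± 0.16 and mt-Rnr1 (small subunit) -2.72 ± 0.11. The log2 ratio of mt-Rnr2 over mt-Rnr1 differed between SC_TH and input_TH by -0.94 ± 0.86 (SD of 12 paired differences), lower in 10 of 12 mice (exact sign-flip permutation, two-sided, p = 0.00537, adjusted over 16 ratio tests 0.0123).

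The light-strand members mt-Nd6 and mt-Tq stood close to 0 in the same comparison, taken as a mean over the 3 ages. mt-Nd6 had 182 to 280 CPM in input_TH and 76.6 to 320 CPM in SC_TH. Its mean share of the reads at 3w, 5m and 18m was 0.0254%, 0.0199% and 0.0118% in SC_TH. In input_TH it was 0.0234%, 0.0252% and 0.0212%. Its log2 difference was -0.30 ± 0.13 (adjusted p = 0.0428), and the call was lost with DESeq2, with factors from nuclear genes only and without any of 7 single mice (187, 189, 190, 191, 194, 197 and 198). mt-Tq had 0.22 ± 0.17 (adjusted p = 0.247) and did not pass. mt-Tp, with 0 to 8 reads per library in SC_TH, had -0.58 ± 0.30 (adjusted p = 0.0791). The heavy-strand tRNA genes mt-Ti and mt-Tw were lower, with -2.14 and -2.44, as was mt-Tm with -2.55. The log2 ratio of mt-Nd6 over mt-Cytb was higher in SC_TH than in input_TH by 1.46 ± 1.47 (SD, n = 12), in 9 of 12 mice (exact permutation p = 0.00830, adjusted 0.0166). This ratio moved with age in SC_TH, where it had a mean of -0.67 ± 0.52 at 3w, -1.49 ± 1.34 at 5m and -2.83 ± 0.87 at 18m (SD, n = 4), against -3.26, -3.23 and -2.88 in input_TH.

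In SYN, 18 of 20 members were lower in SC_SYN than in input_SYN, where 43.2% of all genes tested passed and 21.5% were lower. mt-Co1 had 8930 to 12744 CPM in input_SYN and 3050 to 9888 in SC_SYN and fell by 0.84 ± 0.13 (adjusted p = 1.72e-05), much as in TH. mt-Nd1 and mt-Atp6 had -2.07 ± 0.20 and -2.13 ± 0.22, and mt-Co2 and mt-Co3 -1.86 ± 0.18 and -1.74 ± 0.27. mt-Nd2, mt-Nd4 and mt-Nd5 had -1.59, -1.51 and -1.13, and mt-Cytb (adjusted p = 0.000188) fell less than these 3. mt-Atp8 and mt-Nd3 did not have the largest falls here, with -1.53 ± 0.25 and -1.80 ± 0.18. The log2 ratio of mt-Nd4l over mt-Nd4 was higher in SC_SYN than in input_SYN by 0.94 ± 0.58 (SD, n = 12), in 11 of 12 mice (exact permutation p = 0.000977, adjusted 0.00260). That of mt-Atp8 over mt-Atp6 was higher by 0.56 ± 0.62, in 9 of 12 mice (exact permutation p = 0.0103, adjusted 0.0182). mt-Rnr1 and mt-Rnr2 had -1.57 ± 0.23 and -1.27 ± 0.17. mt-Nd6 had -0.44 ± 0.25 (adjusted p = 0.171) and did not pass. The light-strand tRNA genes were lower here, unlike mt-Tq in TH, with -0.79 ± 0.22 for mt-Tq (adjusted p = 0.00566), -0.83 ± 0.21 for mt-Te (adjusted p = 0.00205) and -1.47 ± 0.27 for mt-Tp (adjusted p = 0.000113). The heavy-strand mt-Ti and mt-Tw had -2.18 and -1.84. Whether these changes differed between SYN and TH was not tested. mt-Nd4l had -0.64 ± 0.30 (adjusted p = 0.0856), which passed with the mouse as a block (adjusted p = 0.0383).

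**Figure D3:**
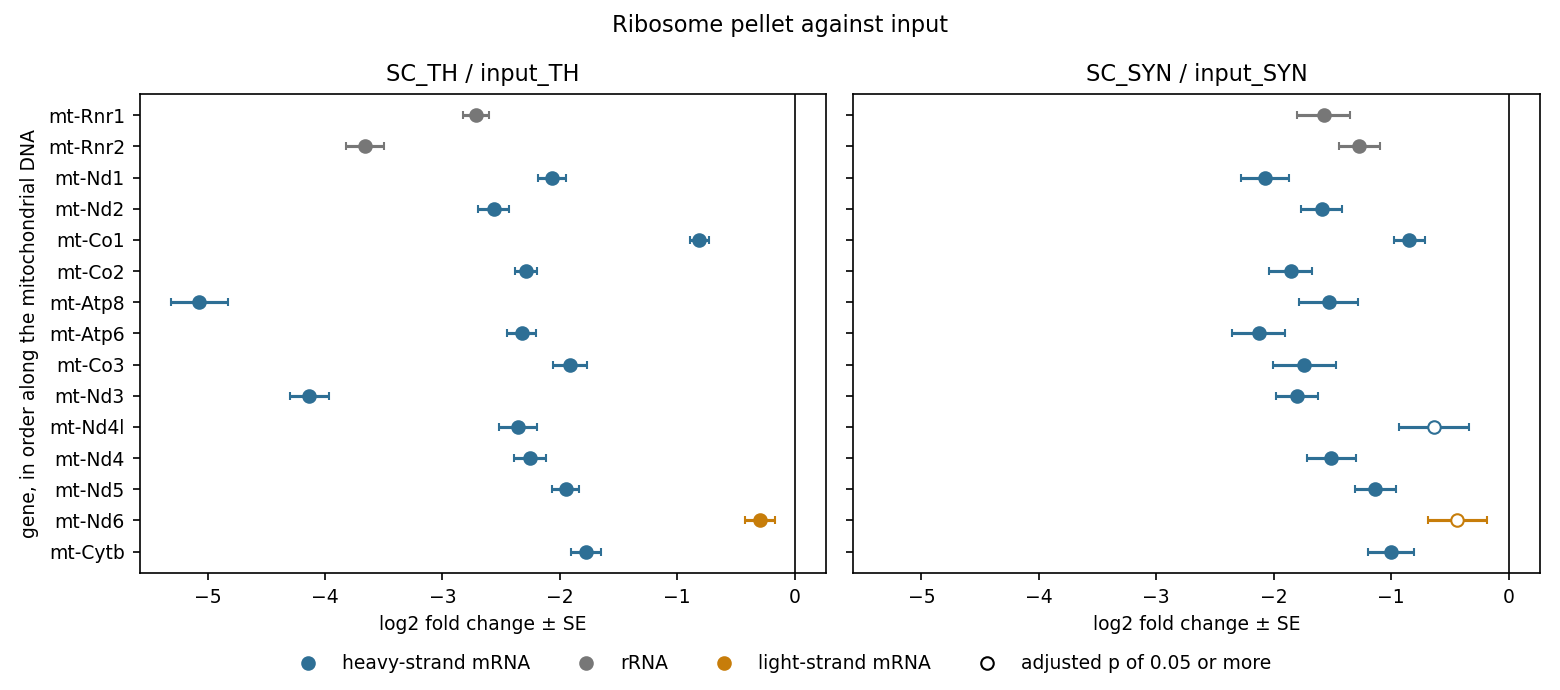
Log2 fold change (± SE) of SC over input for the 13 mRNAs and 2 rRNAs in TH (left) and SYN (right), over 12 mice each, with genes in the order of the mitochondrial DNA. mt-Atp8 and mt-Nd3 are lowest in TH at -5.07 and -4.13, and mt-Nd6 is nearest to 0 in both panels.

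Most nuclear genes of the same enzymes moved the other way. Over all genes tested, 75.8% passed in TH and 40.2% were lower, against 43.2% and 21.5% in SYN. Of 36 nuclear subunits of complex I, 30 were higher and 1 was lower in SC_TH than in input_TH, with a median log2 difference of 0.51, against -0.04 over all genes tested and -2.27 over the 12 heavy-strand mRNAs. Of 36 nuclear subunits of complexes III to V, 30 were higher and 2 lower, with a median of 0.55. Ndufs5 (complex I) rose by 1.48 ± 0.06 and Cox5a (complex IV) by 1.38 ± 0.05. Among 77 genes of mitochondrial ribosomal proteins, which are made in the cytosol, 53 were higher and 9 lower. In SYN, 28 complex I genes were higher and 1 was lower, and 26 genes of complexes III to V were higher and 2 lower. Nuclear genes for the replication, transcription and processing of mitochondrial DNA were split in TH, much as all genes tested were, with 15 of 49 higher and 21 lower.

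SYN was compared with TH to ask which transcripts are higher in the synaptosome fraction. Only TH lysates were centrifuged before the cushion, so in the pellets the compartment and this step cannot be told apart. In the pellets, all 20 members tested were higher in SC_SYN than in SC_TH, where 79.2% of all genes tested passed in either direction and 36.9% were higher. mt-Te and mt-Tp were kept by the count filter only through SC_SYN, where they are higher, which leaves 18 members as a test. The 12 heavy-strand mRNAs rose by 1.34 to 1.96, with a median of 1.49 against -0.08 over all genes tested. mt-Co1 rose by 1.68 ± 0.14 (adjusted p = 4.27e-11), and mt-Rnr1 and mt-Rnr2 by 1.98 and 2.00. The heavy-strand mt-Ti and mt-Tw rose by 1.06 and 0.86. When libraries were scaled by their totals alone, the median of all genes moved to -0.63 and the split of all genes from 6142 higher and 7034 lower to 3667 and 10617. Of the members, mt-Tw no longer passed and 19 still did.

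The light-strand members mt-Nd6 and mt-Tq had the highest values among the 18. mt-Nd6 rose by 2.52 ± 0.25 (adjusted p = 1.04e-09) and mt-Tq by 2.26 ± 0.21 (adjusted p = 3.31e-10). mt-Te had 0 to 8 reads per library in SC_TH (0 to 0.93 CPM) and 8 to 39 in SC_SYN (0.961 to 3.14 CPM), and mt-Tp 0 to 8 and 4 to 29 reads. Both were called, with no weight given to the calls because of the filter. Within SC_SYN, mt-Nd6 was spread widely between mice. It had 257, 1243, 1137 and 343 CPM at 3w, 960, 586, 605 and 845 at 5m, and 619, 436, 357 and 1102 at 18m, with no order by age. The log2 ratio of mt-Nd6 over mt-Cytb differed between SC_SYN and SC_TH by 1.12 ± 1.73 (SD, n = 12; exact permutation p = 0.0459, adjusted 0.0734), which did not pass.

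In the inputs, 16 of 21 members were higher in input_SYN than in input_TH and 3 were lower, where 84.1% of all genes tested passed, 36.7% of all higher and 47.4% lower. mt-Nd6 had 475 to 1608 CPM in input_SYN against 182 to 280 in input_TH, without overlap, and rose by 2.59 ± 0.16 (adjusted p = 6.08e-15). mt-Tq rose by 3.21 ± 0.19 and the heavy-strand mt-Ti by 1.06 ± 0.12. mt-Te and mt-Tp, with 2 to 7 and 4 to 15 reads per library in input_TH, were kept by the filter only through input_SYN, where they are higher. Without them, 14 of 19 members were higher and 3 lower. Of the heavy-strand mRNAs, mt-Co1 rose by 1.66 ± 0.08, mt-Co2, mt-Co3, mt-Nd1 and mt-Atp6 by 1.21 to 1.37, and mt-Nd2, mt-Nd4, mt-Nd5 and mt-Cytb by 0.49 to 0.55. In CPM, mt-Nd2 was lower in input_SYN than in input_TH in 9 of 12 mice, and mt-Nd4, mt-Nd5 and mt-Cytb each in 8 of 12. The calls of these 4 and of mt-Tm depended on the scaling. Scaling by library totals moved the median of all genes from -0.17 to -0.77 and their split from 6548 higher and 8464 lower to 3985 and 11972. These 5 members then had differences of -0.11, -0.055, -0.11, -0.062 and -0.0093, and none passed. mt-Rnr1, at 0.78 ± 0.12, was also lost with that scaling, and mt-Nd4l had -0.11 ± 0.20 and did not pass. mt-Tm (0.59 ± 0.27, adjusted p = 0.0440) was further lost with DESeq2, with the mouse as a block (adjusted p = 0.0732) and without mouse 188, 189, 191, 193, 196 or 198.

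mt-Atp8, as counted, went against its neighbour on the same mRNA. It had 14.7 to 73.6 CPM in input_TH and 2.81 to 11.6 in input_SYN, without overlap, and had a difference of -2.20 ± 0.19 (adjusted p = 2.40e-11), while mt-Atp6 rose by 1.21 ± 0.13. Single input_SYN libraries held 5 to 72 reads of mt-Atp8. The log2 ratio of mt-Atp8 over mt-Atp6 was -5.04 ± 0.39 (SD, n = 12) in input_TH, -7.87 ± 0.62 in SC_TH, -8.37 ± 0.61 in input_SYN and -7.81 ± 0.55 in SC_SYN. input_TH thus stood apart from the other 3 fractions. The ratio was lower in input_SYN than in input_TH in 12 of 12 mice, with a difference of -3.33 ± 0.69 (exact sign-flip permutation p = 0.000488, the smallest that 12 mice allow, adjusted 0.00156). Nearly all of mt-Atp6 also matches its nuclear copy, which held more reads, whereas mt-Atp8 shares no window with a nuclear transcript. With the reads of the copy added to mt-Atp6, the difference was -3.32. The addition took mt-Atp6 from 2153 to 4578 CPM per kb in input_TH and from 3233 to 6824 in input_SYN. These steps are of similar proportion, so the addition could hardly move the difference and does not test the part of the copy. mt-Nd3 (-0.45 ± 0.12, adjusted p = 0.00136) and mt-Rnr2 (-0.45 ± 0.15, adjusted p = 0.00630) were lower as well, and mt-Nd4l over mt-Nd4 was lower in 12 of 12 mice, with -0.82 ± 0.38. The 3 shortest mRNA genes thus had the lowest values of the mRNAs in this comparison, and input_SYN had the lowest median depth. The part of gene length and depth in these ratios was not tested.

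**Figure D4:**
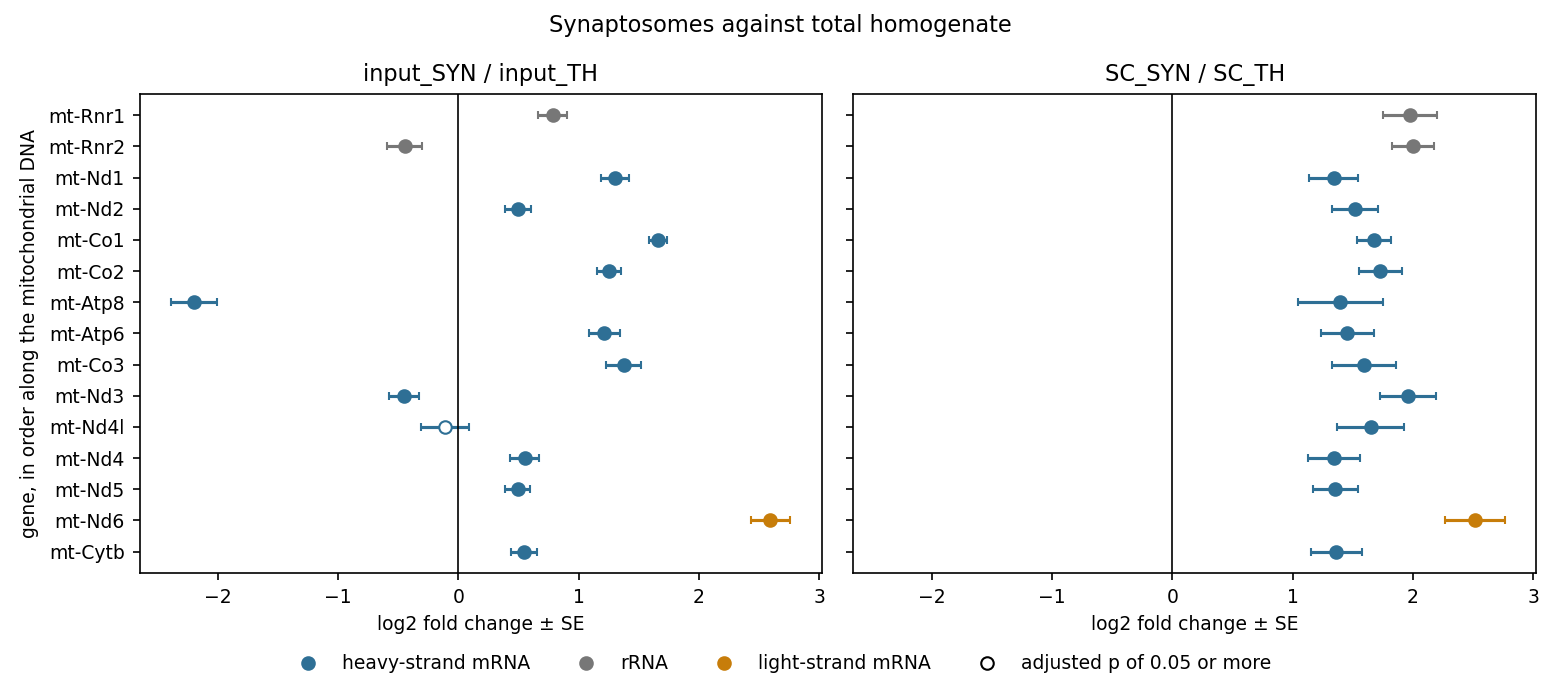
Log2 fold change (± SE) of SYN over TH for the 13 mRNAs and 2 rRNAs in the inputs (left) and the ribosome pellets (right), over 12 mice each. In the pellets all genes lie between 1.34 and 2.52. In the inputs they spread from -2.20 for mt-Atp8 to 2.59 for mt-Nd6.

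Most nuclear respiratory chain genes were also higher in SYN. In SC_SYN against SC_TH, 79.2% of all genes tested passed and 36.9% were higher. Of 36 complex I genes, 29 were higher and 1 was lower in SC_SYN than in SC_TH, with a median of 0.38. Of 36 genes of complexes III to V, 26 were higher and none was lower, with a median of 0.50. Cox6a1 (complex IV) rose by 1.34 ± 0.16 and Ndufb9 (complex I) by 1.11 ± 0.08. Genes for mitochondrial ribosomal proteins had 7 higher and 25 lower of 77, and those for mitochondrial DNA expression 10 higher and 25 lower of 49, with Mterf3, which acts in mitochondrial ribosome assembly, at -1.53 ± 0.11.

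Ages were compared within each fraction. In input_TH, most members fell between 5m and 18m. The 12 heavy-strand mRNAs took 1.70%, 2.02%, 2.20% and 2.13% of the reads in the 5m libraries and 1.68%, 1.03%, 1.49% and 1.21% in the 18m libraries, where the highest old value lay just under the lowest adult one. All 12 fell, with log2 differences of -1.16 (mt-Atp8) to -0.42 (mt-Co2) and a median of -0.59 against 0.00 for all genes tested. With mt-Rnr2 and mt-Ti, 14 of 19 members passed, where 15.5% of all genes tested passed and 7.35% were lower. With library totals as the scale, 14 still passed, and the split of all genes moved from 1479 higher and 1329 lower to 996 and 2063. mt-Rnr2 had 5627, 7491, 8110 and 9221 CPM at 5m and 5088, 2405, 5241 and 1763 at 18m, without overlap (-1.03 ± 0.27, adjusted p = 0.0181). mt-Ti had 8.65, 9.38, 9.91 and 10.4 CPM at 5m and 4.53, 3.08, 3.29 and 2.93 at 18m (-1.42 ± 0.18, adjusted p = 0.000759). mt-Nd6 (-0.20 ± 0.09, adjusted p = 0.165) and mt-Rnr1 (-0.23 ± 0.18, adjusted p = 0.413) did not pass. The weakest call was mt-Nd5 (-0.44 ± 0.14, adjusted p = 0.0400), which was lost with DESeq2 and without mouse 189, 190, 192, 193, 194, 196 or 198. mt-Nd1 was lost without mouse 193, 194, 196 or 198, mt-Cytb without 196 or 198, mt-Atp6 and mt-Nd4 without 198, and mt-Rnr2 without 194 or 196. The count was 9 without mouse 198, and between 10 and 15 without any other single mouse. Against 3w, a comparison added after the values were seen, 12 of 19 members were lower at 18m, where 21.4% of all genes tested passed and 11% were lower. These were mt-Rnr2, mt-Ti and the heavy-strand mRNAs other than mt-Nd2 and mt-Nd5. That count was 6 without mouse 187, and mt-Nd1 was lost with DESeq2, with library totals and without any of 9 single mice (187, 189, 190, 192, 193, 194, 196, 197 and 198). Between 3w and 5m, where 11.8% of all genes tested passed and 4.76% were higher (861 higher and 1275 lower, 1411 and 972 with library totals), 2 of 19 members passed. mt-Ti (0.68 ± 0.17) and mt-Tw (0.65 ± 0.19) rose, and mt-Tw was lost without mouse 188, 189, 190 or 194.

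Nuclear genes of the respiratory chain did not fall with them. Between 5m and 18m in input_TH, 13 of 36 complex I genes rose and none fell, and 12 of 36 genes of complexes III to V rose and none fell. Of all genes tested there, 15.5% passed and 7.35% were lower. Cox6a1 rose by 0.61 ± 0.08 and Ndufa2 (complex I) by 0.46 ± 0.10. The summed oligodendrocyte markers had a median of 3023 CPM at 5m and 3270 at 18m, and the nuclear RNA markers 24265 and 21563. Their part in the fall of the members was not tested.

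In SC_TH, the heavy-strand mRNAs had their lowest mean share at 3w and their highest at 18m. They took 0.398%, 0.375%, 0.463% and 0.369% of the reads at 3w, 0.825%, 0.380%, 0.450% and 0.549% at 5m, and 0.572%, 0.696%, 0.901% and 0.755% at 18m. Mouse 191, the first of the 5m values, stood above the other adult mice. Between 3w and 5m, where 17.9% of all genes tested passed and 9.48% were higher, 3 of 18 members rose, mt-Nd1 (0.74 ± 0.22), mt-Co1 (0.40 ± 0.13) and mt-Co2 (0.58 ± 0.18). The call of mt-Co1 was also lost with library totals, with factors from nuclear genes only and with nuclear copies added (adjusted p = 0.0687), and that of mt-Nd1 with DESeq2. The count was 0 without mouse 187, 188, 190, 191 or 194, 6 without 193, and 10 without 192. Between 5m and 18m, where 2.17% of all genes tested passed, none of 18 members passed by edgeR or DESeq2, and 11 had an unadjusted p under 0.05. Without mouse 191, 11 passed.

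Old mice were then compared with young mice, a comparison added after the values were seen. Of 15 members kept by the count filter at each of these ages, 11 were higher in SC_TH at 18m than at 3w, all of them heavy-strand mRNAs, by 0.71 ± 0.13 (mt-Co1) to 1.37 ± 0.35 (mt-Nd4l), and mt-Nd6 was lower. mt-Atp8, also called, had 0.222, 0.456, 0.843 and 0.327 CPM at 3w and 1.25, 1.35, 4.45 and 2.66 at 18m, and was kept only through 18m. In this comparison 40.5% of all genes tested passed, with 20.3% of all higher and 20.2% lower. mt-Nd1 had 199, 187, 281 and 191 CPM at 3w and 371, 495, 606 and 490 at 18m, without overlap (1.22 ± 0.22, adjusted p = 0.000425). mt-Nd6 had 308, 320, 172 and 215 CPM at 3w and 172, 124, 76.6 and 99.4 at 18m, where the highest 18m value lay just under the lowest 3w value (-1.07 ± 0.28, adjusted p = 0.00612). mt-Rnr1 and mt-Rnr2 did not pass, with -0.16 ± 0.15 and 0.29 ± 0.19. With mt-Atp8, the count of 13 members stayed between 12 and 14 without any single mouse, and mt-Nd3 (1.12 ± 0.38) was lost without mouse 187, 188, 190, 197 or 198. Nuclear subunits rose as well, 19 of 36 in complex I and 24 of 36 in complexes III to V, with 2 lower. Over the same ages, the nuclear RNA markers in SC_TH fell from a median of 15190 CPM to 6707, the oligodendrocyte markers from 5368 to 2683, and the depth rose from a median of 4448523 to 12328632 reads. Their part in the result was not tested.

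The age changes in input_TH and SC_TH were also compared with each other, a test likewise added after the values were seen. Between 5m and 18m, the change in SC_TH exceeded that in input_TH for 7 of 20 members, where 1.78% of all genes tested passed and 0.608% did in this direction (112 higher and 216 lower, 157 and 140 with library totals). These were mt-Nd3, mt-Rnr2, mt-Co3, mt-Nd2, mt-Atp6, mt-Co2 and mt-Co1, with differences of 0.76 to 1.67. With the mouse as a block, 13 passed. The count depended on single mice. It was 0 without mouse 192, 193, 194, 196 or 198, 1 without 197, 4 without 189 or 190, and 14 without 191 or 195. The median difference was 1.11 over the 12 heavy-strand mRNAs, 0.0014 over the complex I genes of the nucleus and 0.06 over those of complexes III to V.

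**Figure D5:**
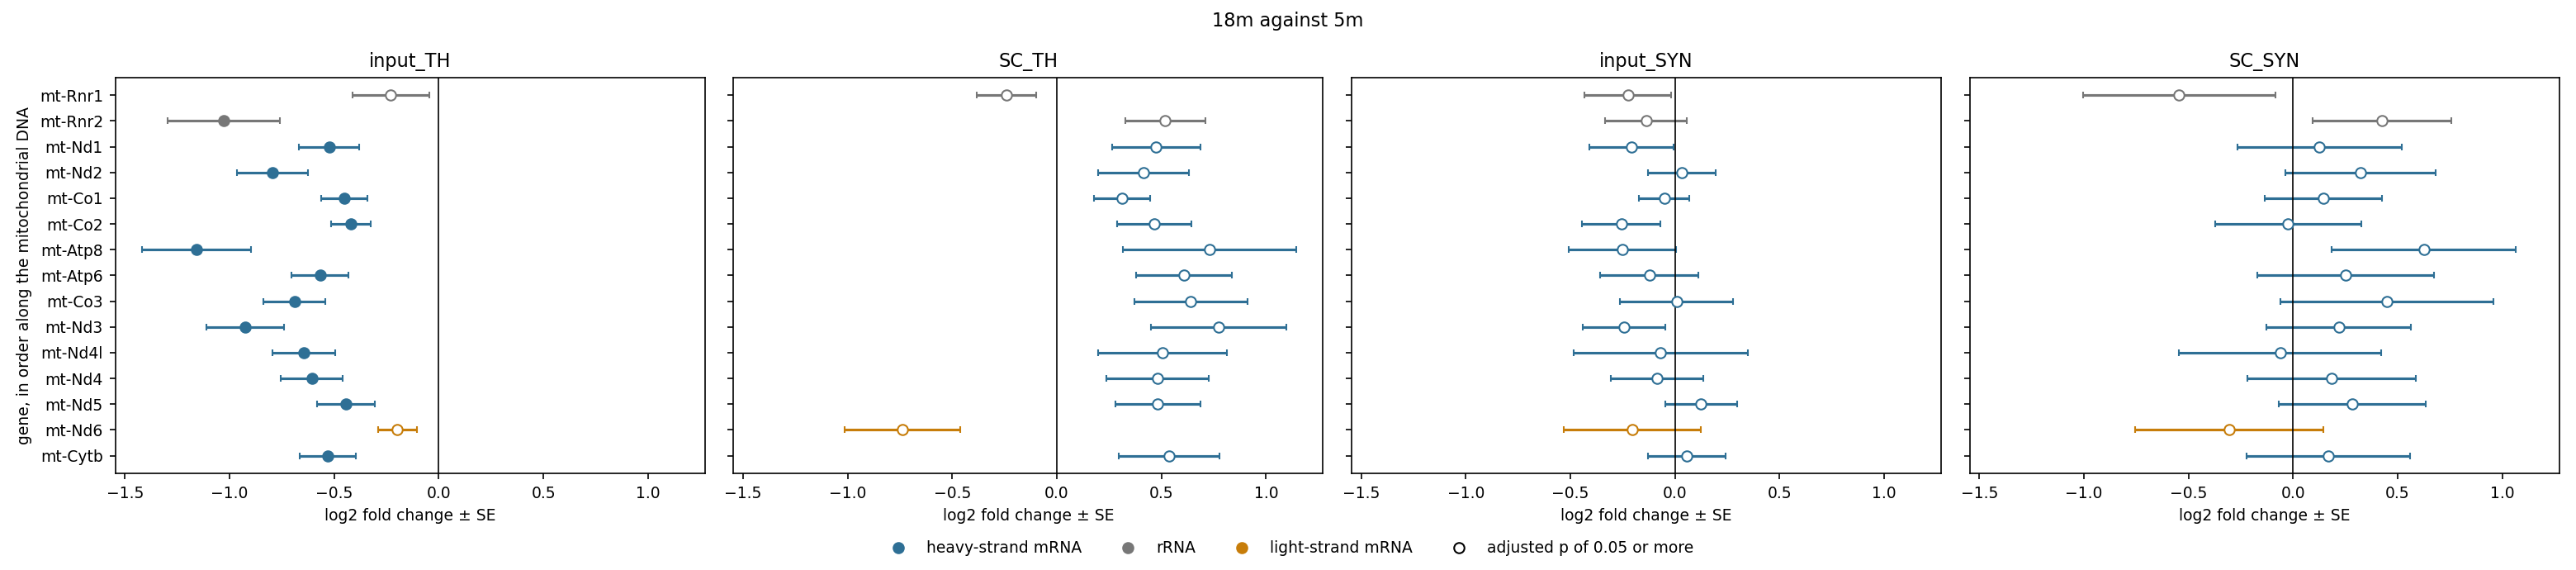
Log2 fold change (± SE) between 5m and 18m for the 13 mRNAs and 2 rRNAs in each fraction, with n = 4 mice at each age. In input_TH the heavy-strand mRNAs lie between -1.16 and -0.42 and all pass. In SC_TH they lie between 0.31 and 0.77 and none passes.

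In synaptosomes few members passed between ages, with 4 mice at each age. Between 3w and 5m, mt-Atp8 rose in input_SYN (5.40, 3.10, 3.72 and 2.81 CPM against 9.25, 7.27, 9.09 and 9.90, without overlap; 1.19 ± 0.30, adjusted p = 0.0410), 1 of 20 members where 3.22% of all genes tested passed and 1.28% were higher. At 3w the libraries held 24, 14, 7 and 5 reads of mt-Atp8. The call was lost without any of mice 188 to 194, and 3 members had an unadjusted p under 0.05. In SC_SYN, mt-Tw was called (adjusted p = 0.0363), 1 of 20 members where 8.05% of all genes tested passed and 4.02% were higher. There, 5 members had an unadjusted p under 0.05. mt-Tw had 0.923, 1.14, 0.680 and 0.663 CPM at 3w and 1.08, 1.95, 3.38 and 2.40 at 5m. No 3w library reached the filter's minimum of 1.37 CPM and mt-Tw was kept only through the older ages, so no weight is given to its calls. It was lost without mouse 187, 188, 189, 190, 192, 193 or 194. Without mouse 191, 2 members passed, and with library totals as the scale the split of all genes moved from 573 higher and 573 lower to 458 and 711. Between 5m and 18m, no member passed in input_SYN or SC_SYN by edgeR or DESeq2, where 0.139% and 0.014% of all genes tested passed, and 1 and 0 members had an unadjusted p under 0.05. Against 3w, again compared after the values were seen, none of 20 members passed at 18m in input_SYN by edgeR or DESeq2, where 4.81% of all genes tested passed, and 3 had an unadjusted p under 0.05. In SC_SYN, where 9.92% passed and 5.05% were higher, mt-Nd5 (1.23 ± 0.36) was higher at 18m than at 3w, and mt-Tw, kept as before, was called again. In that comparison 8 of 20 members had an unadjusted p under 0.05. The number of calls was 0 without mouse 187, 189, 190, 196 or 197, 1 without 188, 192 or 194, and 3 without 191, 193, 195 or 198. Between 5m and 18m, the heavy-strand mRNAs had medians of -0.08 in input_SYN and 0.20 in SC_SYN. In SC_SYN their shares overlapped at all ages, with 0.862% ± 0.151 at 3w, 1.17% ± 0.600 at 5m and 1.34% ± 0.540 at 18m (SD, n = 4).

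The age changes of SYN were then set against those of TH. In the pellets, no member passed by edgeR or DESeq2 between 3w and 5m or between 5m and 18m. There, 0.0301% and 0% of all genes tested passed by edgeR, and 1 member had an unadjusted p under 0.05 in each. In the inputs, none passed between 3w and 5m, where 0.0224% of all genes tested passed, by either tool or at an unadjusted p under 0.05. Between 5m and 18m, where 2.42% of all genes tested passed and 1.01% were higher (180 higher and 252 lower, 423 and 200 with library totals), mt-Ti passed. Its change was higher in input_SYN than in input_TH by 1.08 (adjusted p = 0.0418). With the mouse as a block mt-Ti did not pass (adjusted p = 0.0687), and mt-Nd2 (0.89, adjusted p = 0.0152) and mt-Rnr2 (0.99, adjusted p = 0.0240) did. It was lost without mouse 191, 192, 193, 194, 196, 197 or 198, and 2 members passed without mouse 195. The change in SC_SYN against that in input_SYN, also added after the values were seen, gave no member between 5m and 18m by edgeR, DESeq2 or at an unadjusted p under 0.05, where 0% of all genes tested passed.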

How the data were processed

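RNA was sequenced from cortical TH and SYN of 12 mice, before and after a sucrose cushion. The authors depleted rRNA and prepared all libraries with the same strand-specific kit and UMI adaptors (the use of the UMIs is not stated). They converted the data with bcl2fastq 2.20.0.422 and mapped single-end reads to GRCm38 with TopHat2 2.1 against the annotated transcriptome. Reads were counted with featureCounts, with strand ignored by the stated setting. How reads that map to several genes were treated is not stated. The deposited values are raw counts per gene, without normalization. All 48 columns were used.

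Members were chosen by symbol through GENCODE M21. The members, lists and tests were chosen with earlier results of these data known. The main test was the quasi-likelihood F-test of edgeR 4.0.16 in R 4.3.3, with TMM factors and genes kept by filterByExpr, fitted within each fraction for ages and over 24 libraries of both fractions for SC against input and SYN against TH, without a block. DESeq2 1.42.0 was an alternative. Ratios of member pairs were taken with a pseudocount of 0.5 counts and tested by 4096 sign flips over 12 mice, adjusted over 16 tests. Nuclear copies were found with blastn 2.17.0 between annotated transcripts, since no genome sequence was used here. By rule, the 13 mRNAs and 2 rRNAs are named where they were tested, tRNA genes where they were called, and up to 3 genes per outside list, while members without a call between ages are given by counts. Members that filterByExpr kept through 1 side of a comparison are named as such. Of the hand-written lists, 49 of 50, 36 of 36 and 36 of 37 symbols matched, and 78 genes of mitochondrial ribosomal proteins were taken by symbol.

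The 4 libraries with the same number in their titles were taken to come from 1 animal. Deviations of a mouse's libraries from their age groups correlated with a median r of -0.04 for SC_SYN with SC_TH, 0.16 for SC_SYN with input_SYN, and 0.12 for the other pairings tested. For SC_SYN with input_SYN, r was 0.38 and 0.55 for mice 195 and 196, but -0.55 and -0.54 for mice 197 and 198. The paired tests and the counts of mice rest on the numbers in the titles, and the pairing was not tested further. Mice are the replicates, and pairs of mice of 1 group had a chi-square per degree of freedom of 1.98 to 32.2 against counting error. Counts were simulated gene by gene with a log2 change of 1.5. Of the changed genes, 196 of 200 were recovered for SC_TH at 18m against 5m (14 false calls) and 197 of 198 for SC_SYN against SC_TH (13 false). Recovery was 200 of 200 for SC_TH against input_TH (8 false), and 160 of 197 for the difference of age changes between SC_SYN and SC_TH (2 false). The planted change was larger than those of the heavy-strand mRNAs in SC_TH between 5m and 18m. The recovery therefore does not give the power for changes of their size. Age comparisons within SYN were not simulated. Alternatives were library size, factors from nuclear genes only, no filter, nuclear copies added to their gene, the mouse as a block, and each mouse left out.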

Additional observations from a re-analysis of the deposited data

Results flagged for a closer look

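Each of 192 sets of 4 mice (the share of counts and 15 genes in 12 groups) was searched for a library far from the others by Dixon's ratio at its 95% critical value. In 6 sets a library was past it, where chance gives about 1 in 20, or 9.6. In SC_TH at 3w, mouse 189 was high for mt-Nd1 (ratio 0.873; 281 CPM against 187 to 199) and mt-Co3 (0.928; 163 against 114 to 118). In SC_TH at 18m, mouse 197 was high for mt-Rnr1 (0.843; 34.3 against 25.8 to 27.2). In input_SYN, mouse 195 was low for mt-Co1 at 18m (0.849; 9215 against 11175 to 11524), mouse 189 was high for mt-Nd3 at 3w (0.832; 66.4 against 39.3 to 43.9), and mouse 187 was high for mt-Nd4 at 3w (0.902; 1878 against 1159 to 1229).

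Age changes between 5m and 18m differed between fractions for 8 members by edgeR's test of the difference. mt-Ti changed more in input_SYN than in input_TH, by 1.08 on the log2 scale. The change in SC_TH exceeded that in input_TH by 1.55 for mt-Rnr2, 1.21 for mt-Nd2, 0.76 for mt-Co1, 0.88 for mt-Co2, 1.18 for mt-Atp6, 1.33 for mt-Co3 and 1.67 for mt-Nd3 (adjusted p between 0.0267 and 0.0412). These 7 were tested after their values were seen, and none was called without mouse 192, 193, 194, 196 or 198.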

How the results depend on the processing

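The counts of members called for SC against input and SYN against TH stayed within 1.5 times of the reported ones under every alternative run, with ranges without single mice of 17 to 19 for SC_TH against input_TH, 18 to 20 for SC_SYN against input_SYN, 20 to 20 for SC_SYN against SC_TH, and 18 to 19 for input_SYN against input_TH. Without the filter on low counts, calls in age comparisons increased to 11 (SC_TH, 5m against 3w), 12 (SC_TH, 18m against 5m), 3 (input_SYN, 5m against 3w and 18m against 3w), 4 and 6 (SC_SYN, 5m and 18m against 3w), 9 (change in input_SYN minus input_TH, 18m against 5m) and 14 (change in SC_TH minus input_TH). The cause was not tested. The change in input_SYN minus input_TH gave 2 calls with DESeq2, with library size and with the mouse as a block, against 1 reported, and the block gave 13 against 7 for the change in SC_TH minus input_TH. The block further ended the call of mt-Tm and gained that of mt-Nd4l, and changed no other call beyond those given with the results.

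Leaving out single mice gave 1 to 2 calls in input_TH at 5m against 3w, 9 to 15 at 18m against 5m and 6 to 14 at 18m against 3w (12 reported, 6 without mouse 187). It gave 0 to 10, 0 to 11 and 12 to 14 in SC_TH, 0 to 1, 0 to 0 and 0 to 1 in input_SYN, and 0 to 2, 0 to 0 and 0 to 3 in SC_SYN (2 reported at 18m against 3w). The range was 0 to 2 for the change in input_SYN minus input_TH and 0 to 14 for SC_TH minus input_TH, both at 18m against 5m.

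Of the ratios, mt-Atp8 over mt-Atp6 in SC_SYN minus input_SYN (0.56) missed the threshold without a replicate block (adjusted p = 0.0502), and in SC_SYN minus SC_TH (0.05) it turned to -0.34 with a pseudocount of 5 and ranged from -0.014 (without mouse 188) to 0.12 without single mice. Without single mice, mt-Rnr2 over mt-Rnr1 ranged from 0.29 to 0.53 in SC_SYN minus input_SYN, mt-Nd4l over mt-Nd4 from 0.24 to 0.38 in SC_SYN minus SC_TH, and mt-Nd6 over mt-Cytb from 0.42 to 0.85 in SC_SYN minus input_SYN and from 0.82 to 1.34 in SC_SYN minus SC_TH. With nuclear copies added, the members' share was 3.07% in input_TH and 3.94% in input_SYN. With library size, 5 single members turned, mt-Tm (-0.0093), mt-Nd2 (-0.11), mt-Nd4 (-0.055), mt-Nd5 (-0.11) and mt-Cytb (-0.062), all in input_SYN against input_TH. Low counts limit mt-Atp8 in SC and in input_SYN, and all tRNA genes.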
